A study of Mus musculus with 8 samples.

Results

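The genes described here encode ligands, receptors and intracellular mediators of transforming growth factor beta (TGF-beta) signalling: the ligands Tgfb1 and Tgfb3, the receptors Tgfbr1 and Tgfbr2, the mediators Smad2, Smad3 and Smad4, and the antagonists Smad7, Ski and Skil. Every ATAC-seq peak whose gene name in the deposited peak table was one of these 10 symbols was taken, which gave 171 of 67822 peaks, each tested by itself and summed per gene. ATAC-seq marks open chromatin by the insertion of sequencing adapters with a transposase, and a tag is a mapped read counted in a peak. The groups were 4 libraries from Nlrp3 knockout mice, named in the series as a Cias1 knockout line from Millennium Pharmaceuticals and written Nlrp3-/-, and 4 libraries from wild-type mice of C57BL/6N background. Cias1 is an older symbol of Nlrp3, and the labels give neither the construct, the age of the mice nor the background of the knockout line. All 8 libraries came from forebrain cells held on CD11b magnetic beads after myelin removal, that is, from microglia, the macrophages of the brain. The question was whether loss of Nlrp3, the sensor of an inflammasome, goes with a different accessibility at these genes. RNA and protein were not measured in these libraries.

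A TGF-beta ligand binds the type II receptor TGFBR2, which phosphorylates and activates the type I receptor TGFBR1. The activated receptor phosphorylates SMAD2 and SMAD3, and these enter the nucleus with the shared partner SMAD4 to bind DNA at their target genes. SMAD7 is an inhibitory SMAD that is itself induced by the pathway and blocks the type I receptor, while SKI and SKIL (SnoN) are co-repressors that hold SMAD complexes inactive. In mice, microglia need TGF-beta signalling to acquire and keep their homeostatic gene programme.

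Total tags ranged from 11325865 to 14301529 in the knockout libraries and from 11872703 to 15521580 in the wild-type libraries. The share of tags in peaks was 4.96% to 26.2% in knockout and 9.79% to 17.5% in wild-type libraries, and knockout replicates 1 and 2 had the lowest shares, 6.68% and 4.96%. Tags in peaks on chromosome Y numbered 9, 2, 88 and 1 in knockout replicates 1 to 4. They numbered 9, 13, 201 and 255 in wild-type replicates 1 to 4, so the libraries of a genotype were not alike in this respect. The labels do not give the sex of the mice, and a difference in sex was not tested. The labels were checked at the Nlrp3 promoter peak chr11:59541383-59541657, which held 0, 0, 0 and 1 tag in knockout replicates 1 to 4, against 75, 58, 58 and 80 tags in wild-type replicates 1 to 4. All 10 microglial markers examined had a promoter peak, and their summed level was 2292 to 2535 CPM in knockout and 2032 to 2336 CPM in wild-type libraries (exact permutation p = 0.0857, two-sided, where 0.0286 is the smallest p that 4 against 4 libraries allow). CPM, the unit of level used here, divides the tags of a peak by the library's TMM-scaled sum over tested peaks. For marker lists of 6 other cell classes the exact permutation p of the summed level was 0.114 to 0.971. Of 8 granulocyte and lymphocyte markers 1 had any peak, and of 8 border macrophage and monocyte markers 7 had one. So did 4 of 8 neuron, 6 of 8 endothelial or mural, 5 of 8 oligodendrocyte and 6 of 7 astrocyte markers. Per kb, knockout libraries had 45.5 to 64.6 CPM for the astrocyte list and 50.3 to 58.7 CPM for the oligodendrocyte list. The microglial list had 54.8 to 60.7 CPM and the border macrophage list 40.9 to 92 CPM. The other lists had 6.44 to 40.9 CPM. These marker peaks therefore give no measure of purity. Fewer cells of a type and less accessibility per cell cannot be told apart in these bulk libraries.

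At nearly all peaks of these genes no difference between the knockout and wild-type libraries passed the test, and the exceptions were single peaks of Smad7 and Tgfb3. Downstream of Smad7, 1 peak was lower and another higher in the knockout, and a peak in the first exon of Tgfb3 was higher. Of the 171 peaks, 148 had enough tags to be tested (edgeR's quasi-likelihood test), and 3 of these (2.03%) passed at a Benjamini-Hochberg adjusted p under 0.05, against 0.170% of all 58135 tested peaks. Of the 3, 2 were higher in the knockout, against 0.0550% of all tested peaks, and 1 was lower, against 0.115%. The 2 higher peaks were on the peak list of the knockout libraries only. They thus entered the peak table through the libraries in which they were higher. An unadjusted p under 0.05 was found for 16 of the 148 peaks (10.8%), against 4.83% of all tested peaks. The genotypes did not overlap at 10 of the 148 peaks (6.76%), against 3.17% of all tested peaks. The median log2 fold change, knockout over wild type, was 0.022 over the 148 peaks and 0.0037 over all tested peaks, and 83.1% of the 148, against 91.0% of all tested peaks, lay within 0.5 of 0 on this scale. When libraries were scaled to all of their tags, peaks or not, none of the 171 peaks passed; the log2 fold changes of the 3 were then 1.73 at Tgfb3 and -1.38 and 2.33 at Smad7, each with an adjusted p of 1.

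**Figure D1:**
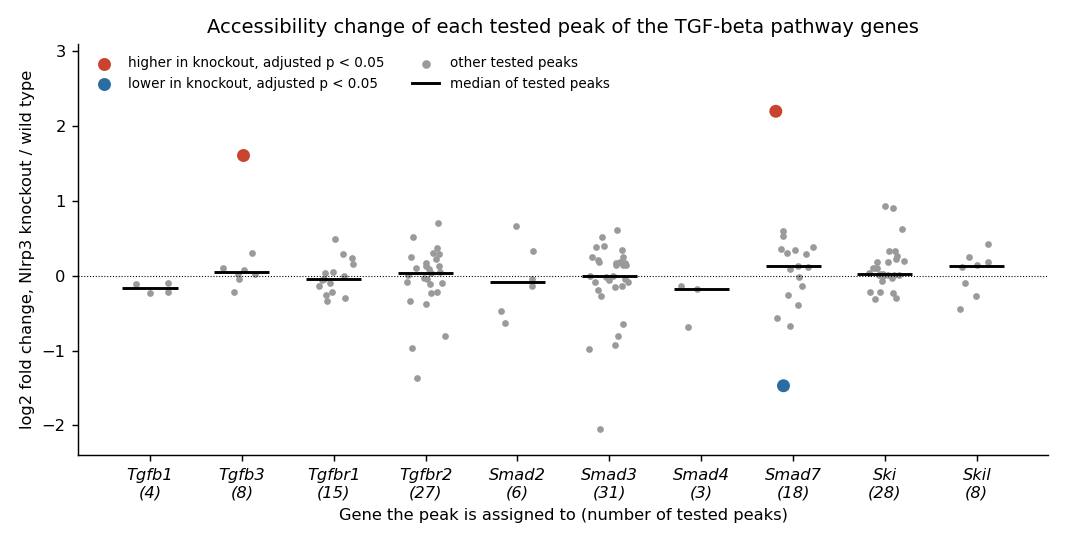
Log2 fold change (Nlrp3 knockout over wild type, vertical axis) of each of the 148 tested peaks, arranged by the gene to which the peak is assigned (horizontal axis). Grey points did not pass the test, large points passed (red higher, blue lower in the knockout), and black bars are medians. The medians lie between -0.18 and 0.13, and the large points belong to Tgfb3 (1.62) and Smad7 (2.20 and -1.47).

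The peaks were unevenly spread over the genes. Tgfbr2 had 36, Smad3 32, Ski 31, Tgfbr1 19, Smad7 19, Tgfb3 10, Skil 9, Smad2 7, Tgfb1 4 and Smad4 4 peaks, where the median gene with a peak had 3. Introns held 66.7% of the 171 peaks (all peaks, 42.9%), intergenic sequence 24% (30.3%) and promoters 5.85% (19.5%). The body of the named gene held 109 peaks, and 62 lay outside it, of which 16 were inside introns of other genes: 8 peaks named for Tgfb3 in Ttll5, 4 named for Tgfbr1 in Col15a1 and 4 named for Tgfbr2 in Gadl1. The table names the gene with the nearest start site, so a peak's gene name is a position and not a shown target.

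Promoter windows of a ligand and of both receptors are shown, because no peak in them passed the test, while the sites that passed lay elsewhere. They are given as RefSeq has them for the mm10 build (250 bases before to 50 bases after the annotated start, 5′ to 3′ on the gene's strand). The Tgfb1 window is chr7:25686752-25687051 on the plus strand, of which 274 of 300 bases lay in a peak. Of the 2 Tgfbr1 windows listed, that of the accessible promoter is chr4:47352972-47353271 on the plus strand, with 259 bases in a peak, and the Tgfbr2 window is chr9:116175314-116175613 on the minus strand, with 75 bases in a peak. Capitals mark the letters CAGAC, the core of the SMAD binding element, searched on both strands.
Tgfb1: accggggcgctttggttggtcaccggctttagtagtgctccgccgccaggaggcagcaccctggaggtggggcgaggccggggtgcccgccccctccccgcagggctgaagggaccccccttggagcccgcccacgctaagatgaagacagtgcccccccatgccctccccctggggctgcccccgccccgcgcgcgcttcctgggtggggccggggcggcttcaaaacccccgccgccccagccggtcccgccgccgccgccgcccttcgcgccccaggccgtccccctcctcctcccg
Tgfbr1: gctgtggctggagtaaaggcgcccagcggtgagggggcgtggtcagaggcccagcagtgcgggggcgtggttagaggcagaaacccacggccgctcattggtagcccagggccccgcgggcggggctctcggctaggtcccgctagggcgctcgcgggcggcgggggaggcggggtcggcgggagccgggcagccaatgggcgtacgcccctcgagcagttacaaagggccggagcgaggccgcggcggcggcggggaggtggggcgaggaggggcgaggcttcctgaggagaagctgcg
Tgfbr2: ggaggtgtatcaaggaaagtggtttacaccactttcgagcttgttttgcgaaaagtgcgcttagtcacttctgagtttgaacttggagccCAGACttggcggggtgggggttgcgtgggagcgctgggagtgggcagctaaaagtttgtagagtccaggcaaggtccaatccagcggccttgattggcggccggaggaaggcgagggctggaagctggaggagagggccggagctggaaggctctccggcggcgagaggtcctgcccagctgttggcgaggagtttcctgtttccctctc
The Tgfbr2 window held 1 match, which lies outside its 75 bases in a peak, and the Tgfb1 and Tgfbr1 windows shown held 0. The other Tgfbr1 window, chr4:47385966-47386265 with 0 bases in a peak, held 1. Of 32851 mouse promoter windows of this length, 49.6% held at least 1. The palindrome GTCTAGAC (0.213% of all windows) and the ETS-type motif AGGAAGT (9.35%), searched on both strands and sharing no full match with CAGAC, were in none of the 3. GC content was 77.0% in the Tgfb1, 74.7% in the Tgfbr1 and 59% in the Tgfbr2 window.

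Tgfb1, the ligand best known in microglia, was assigned 4 peaks, all inside or at the start of the gene and all tested. Its promoter peak (chr7:25686682-25687025) held 16, 10, 43 and 90 tags in knockout replicates 1 to 4 and 32, 43, 42 and 55 tags in wild-type replicates 1 to 4. In CPM these were 19.3, 14.8, 18.9 and 29.1 in knockout and 15.9, 30.2, 23.9 and 25.6 in wild-type libraries, so the raw tags mostly followed the depth in peaks and the genotypes overlapped (log2 fold change -0.10, SE 0.22, adjusted p = 1). The lowest of the 4 fold changes was at an intron 1 peak (chr7:25688070-25688396), with 16.9, 16.2, 8.34 and 11.0 CPM in knockout and 18.9, 15.5, 8.54 and 12.1 CPM in wild-type libraries (log2 fold change -0.23, SE 0.28, adjusted p = 1). All 4 had a negative log2 fold change, as did 28757 of all 58135 tested peaks, and none of the 4 passed.

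Tgfb3 had a first-exon peak that was higher in the knockout beside a promoter peak that did not differ detectably. The first-exon peak, annotated to the 5′ UTR (chr12:86078452-86078729, 0.5 kb past the start), held 11, 10, 28 and 48 tags in knockout replicates 1 to 4, against 7, 5, 12 and 9 tags in wild-type replicates 1 to 4. In CPM these were 13.3, 14.8, 12.3 and 15.5 in knockout and 3.48, 3.51, 6.83 and 4.19 in wild-type libraries, without overlap. The mean was 14 ± 1.45 CPM in knockout and 4.50 ± 1.58 CPM in wild-type libraries (SD, n = 4 each), a log2 fold change of 1.62 (SE 0.30, adjusted p = 0.00924, edgeR). The peak was on the knockout peak list only, and these lists were drawn from the same libraries. With few wild-type tags, this peak entered the test through the knockout libraries. Its list and the lack of overlap are therefore not separate evidence of the call. The adjusted p was 0.0649 without knockout replicate 4, 0.0567 without wild-type replicate 1, 0.0538 without wild-type replicate 4 and 0.0521 with DESeq2, with log2 fold changes of 1.53, 1.51, 1.57 and 1.63, and over all 14 alternatives it was 0.00743 to 1.

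The Tgfb3 promoter peak (chr12:86079452-86079721) lies 0.72 kb from the first-exon peak. It had 21.7, 17.7, 27.2 and 20.1 CPM in knockout and 21.4, 26, 18.8 and 21.9 CPM in wild-type libraries, which overlapped throughout (log2 fold change 0.026, SE 0.20, adjusted p = 1). Within a library, the first-exon peak held 0.611, 0.833, 0.452 and 0.774 tags for each tag of the promoter peak in knockout replicates 1 to 4, against 0.163, 0.135, 0.364 and 0.191 in wild-type replicates 1 to 4. This ratio does not depend on how libraries are scaled, and its lowest knockout value was above its highest wild-type value; it restates the call, for which the peak was chosen. The other 8 peaks named for Tgfb3 all lie in Ttll5, 31.5 to 115.2 kb from the Tgfb3 start, and the 6 that were tested did not pass. The lowest of them (chr12:85992076-85992339, intron 29 of Ttll5) had 14.5, 8.86, 15.4 and 15.5 CPM in knockout and 16.9, 19, 15.9 and 15.4 CPM in wild-type libraries (log2 fold change -0.21, SE 0.22, adjusted p = 1).

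**Figure D2:**
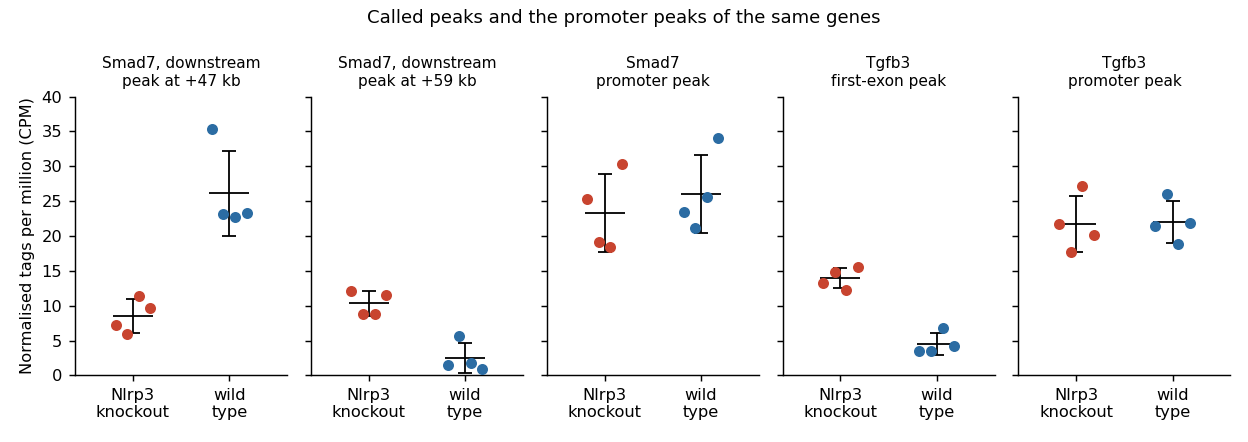
CPM in each library (points) with mean and SD (bars) for the 3 peaks that passed and for the promoter peaks of the same genes, Nlrp3 knockout left and wild type right in each panel. At the Tgfb3 first exon, knockout libraries lie at 12.3 to 15.5 CPM and wild-type libraries at 3.48 to 6.83 CPM, while the promoter peaks overlap.

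Tgfbr1, which encodes the type I receptor, had its main promoter peak (chr4:47353013-47353289) at 84.5, 82.7, 50.5 and 71.5 CPM in knockout and 62.1, 71.7, 76.8 and 70.3 CPM in wild-type libraries. The knockout libraries lay on both sides of the wild-type libraries (log2 fold change -0.0024, SE 0.15, adjusted p = 1). Of its 19 peaks 15 were tested and none passed, with log2 fold changes from -0.34 to 0.49. The lowest was an intergenic peak (chr4:47324254-47324588) with 8.45, 8.86, 5.71 and 6.79 CPM in knockout and 9.45, 7.03, 8.54 and 9.78 CPM in wild-type libraries. The highest was in intron 2 (chr4:47395582-47395862), with 7.24, 5.91, 7.46 and 4.53 CPM in knockout and 4.47, 2.81, 2.85 and 6.52 CPM in wild-type libraries. Both had overlapping genotypes. Per kb, the most accessible of all 171 peaks was an intergenic peak 37.5 kb upstream of Tgfbr1 (chr4:47315534-47315826), at 443 ± 18.2 CPM per kb in knockout and 395 ± 44.2 CPM per kb in wild-type libraries (log2 fold change 0.16, adjusted p = 1).

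Tgfbr2, which encodes the type II receptor, had 27 of its 36 peaks tested. None was annotated as promoter, and the peak nearest its start site, in the 5′ UTR (chr9:116175108-116175388), was at 94.0 CPM per kb in knockout and 94.5 CPM per kb in wild-type libraries (log2 fold change 0.0091, adjusted p = 1). A pair of peaks had genotypes that did not overlap and were lower in the knockout libraries without passing. The peak chr9:116152919-116153188, in intron 1, had 2.41, 4.43, 3.51 and 2.26 CPM in knockout and 8.95, 8.43, 7.97 and 5.59 CPM in wild-type libraries (log2 fold change -1.36, SE 0.39, edgeR adjusted p = 0.399). This intron 1 peak was on the wild-type peak list only, so its lack of overlap is not separate evidence. The peak chr9:116059115-116059398, which lies in intron 14 of the neighbouring gene Gadl1, had 4.83, 16.2, 13.6 and 10.7 CPM in knockout and 25.4, 21.1, 21.1 and 22.4 CPM in wild-type libraries (log2 fold change -0.97, SE 0.24, edgeR adjusted p = 0.142). It falls outside the rule for named peaks and was chosen after its values were seen. The highest fold change was at another intron 1 peak (chr9:116171074-116171322), with 10.9, 4.43, 5.71 and 7.76 CPM in knockout and 6.96, 3.51, 4.55 and 2.33 CPM in wild-type libraries (log2 fold change 0.70, SE 0.39, adjusted p = 1).

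Among the receptor-activated SMADs, none of the 31 tested peaks of Smad3 and none of the 6 of Smad2 passed. The Smad3 promoter peak (chr9:63758030-63758478) had 62.7, 34.0, 63.7 and 82.5 CPM in knockout and 60.2, 66.1, 93.9 and 72.7 CPM in wild-type libraries (log2 fold change -0.19, SE 0.18, adjusted p = 1). The lowest Smad3 peak lies between genes 36.3 kb upstream of the start (chr9:63794141-63794412) and was on the wild-type peak list only. It held 4, 4, 3 and 2 tags in knockout replicates 1 to 4 and 9, 23, 14 and 15 tags in wild-type replicates 1 to 4. In CPM, knockout replicates 3 and 4 were the lowest at 1.32 and 0.647, while knockout replicates 1 and 2, at 4.83 and 5.91, overlapped the wild-type range of 4.47 to 16.2 (log2 fold change -2.05, SE 0.53, adjusted p = 0.239). Without knockout replicates 1 and 2, the libraries with the lowest shares of tags in peaks, it passed (log2 fold change -3.10, edgeR adjusted p = 0.00561). These are also the knockout libraries that overlapped the wild type, and without them the calls over all tested peaks rose from 99 to 246. With any 1 library left out, the Smad3 peak did not pass (smallest edgeR adjusted p = 0.0788, without knockout replicate 2). The peak beside it (chr9:63793757-63794017), chosen after its values were seen, averaged 8.04 ± 1.74 CPM in knockout and 14.4 ± 4.84 CPM in wild-type libraries (log2 fold change -0.92, SE 0.29, adjusted p = 0.649). The highest Smad3 peak, 24.8 kb upstream (chr9:63782683-63782986), had 15.7, 5.91, 12.3 and 8.73 CPM in knockout and 8.45, 5.62, 7.97 and 5.59 CPM in wild-type libraries (log2 fold change 0.61, SE 0.31, adjusted p = 1).

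Smad2, Smad4 and Smad7 all lie on chromosome 18. The Smad2 promoter peak with the most tags (chr18:76241113-76241411) had 54.3, 26.6, 40.8 and 44.3 CPM in knockout and 38.8, 42.2, 53.5 and 49.8 CPM in wild-type libraries (log2 fold change -0.13, SE 0.17, adjusted p = 1). The lowest tested peak, 4.1 kb upstream (chr18:76237349-76237803), had 6.03, 17.7, 8.34 and 8.09 CPM in knockout and 12.4, 15.5, 15.4 and 13.5 CPM in wild-type libraries (log2 fold change -0.63, SE 0.27, adjusted p = 0.978). In it, knockout replicate 2 was above all wild-type libraries and the other knockout libraries were below them. The highest, in intron 1 (chr18:76242083-76242471), had 8.45, 16.2, 14.5 and 7.76 CPM in knockout and 6.46, 5.62, 6.26 and 9.32 CPM in wild-type libraries (log2 fold change 0.66, SE 0.31, adjusted p = 1). A further intron 1 peak of Smad2 (chr18:76259748-76260016) had too few tags for the test, with 1, 2, 1 and 2 tags in knockout replicates 1 to 4 and 12, 11, 9 and 8 tags in wild-type replicates 1 to 4. Tested without the filter on low counts it did not pass (log2 fold change -2.53, adjusted p = 0.0765), and without knockout replicates 1 and 2 it did (log2 fold change -3.17, adjusted p = 0.0298). It was on the wild-type peak list only and was chosen after its values were seen.

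Smad4, the shared partner SMAD, had 4 intronic peaks, of which 3 were tested and none passed. The lowest (chr18:73674217-73674479, intron 4) had 3.62, 5.91, 2.20 and 2.91 CPM in knockout and 5.47, 5.62, 6.83 and 2.79 CPM in wild-type libraries (log2 fold change -0.69, SE 0.45, adjusted p = 1). The highest (chr18:73693477-73693751, intron 1) had 16.9, 8.86, 16.7 and 17.5 CPM in knockout and 16.9, 15.5, 19.4 and 17.7 CPM in wild-type libraries (log2 fold change -0.13, SE 0.22, adjusted p = 1). The peak over the Smad4 start site itself (chr18:73703720-73704077) carries the name of another gene in the table, 4930578L24Rik, and so is not among the 171. It held 16, 7, 29 and 64 tags in knockout replicates 1 to 4 and 30, 37, 39 and 44 tags in wild-type replicates 1 to 4 (log2 fold change -0.32, SE 0.23, adjusted p = 1).

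Smad7, the inhibitory SMAD, had peaks that moved in opposite directions. The lower peak (chr18:75414241-75414469) lies 18.3 kb past the end of the gene and held 6, 4, 26 and 30 tags in knockout replicates 1 to 4, against 71, 33, 40 and 50 tags in wild-type replicates 1 to 4. In CPM these were 7.24, 5.91, 11.4 and 9.70 in knockout and 35.3, 23.2, 22.8 and 23.3 in wild-type libraries, so every knockout library was below every wild-type library. The mean was 8.57 ± 2.47 CPM in knockout and 26.1 ± 6.11 CPM in wild-type libraries (SD, n = 4 each), a log2 fold change of -1.47 (SE 0.24, adjusted p = 0.00213, edgeR). It passed whichever single library was left out, with log2 fold changes from -1.64 to -1.29 over all 14 alternatives.

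The higher Smad7 peak (chr18:75426082-75426357) lies 11.6 kb further on, 30.1 kb past Smad7 and 4.8 kb before the next gene, Ctif. It held 10, 6, 20 and 36 tags in knockout replicates 1 to 4, against 3, 8, 3 and 2 tags in wild-type replicates 1 to 4. In CPM these were 12.1, 8.86, 8.78 and 11.6 in knockout and 1.49, 5.62, 1.71 and 0.932 in wild-type libraries, again without overlap, although wild-type replicate 2 stood above the other wild-type libraries. The log2 fold change was 2.20 (SE 0.42, adjusted p = 0.0133, edgeR). The peak was on the knockout peak list only, and these lists were drawn from the same libraries. With so few wild-type tags, it entered the test through the knockout libraries. Its list and the lack of overlap are therefore not separate evidence of the call. The adjusted p was 0.0561 without knockout replicate 3, 0.109 without knockout replicate 4, and 0.0794, 0.0807 and 0.103 with wild-type replicate 1, 3 or 4 left out alone, with log2 fold changes from 1.89 to 2.28 in these fits.

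Between the lower and the higher peak lies 1 more (chr18:75419433-75419771), shown for its position, at 8.95 ± 2.42 CPM in knockout and 7.69 ± 1.2 CPM in wild-type libraries (log2 fold change 0.12, SE 0.30, adjusted p = 1). Within a library, the higher peak held 1.67, 1.5, 0.769 and 1.2 tags for each tag of the lower peak in knockout replicates 1 to 4, against 0.0423, 0.242, 0.0750 and 0.0400 in wild-type replicates 1 to 4. These ratios do not depend on the scaling, but they restate the calls, since the pair was chosen for its opposed differences. The Smad7 promoter peak (chr18:75367281-75367757) had 25.3, 19.2, 18.4 and 30.4 CPM in knockout and 23.4, 21.1, 25.6 and 34.0 CPM in wild-type libraries (log2 fold change -0.13, SE 0.21, adjusted p = 1). This promoter peak covers the Smad7 start, but its promoter annotation names a transcript of another gene, Gm20544. None of the other 15 tested peaks of Smad7 passed.

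**Figure D3:**
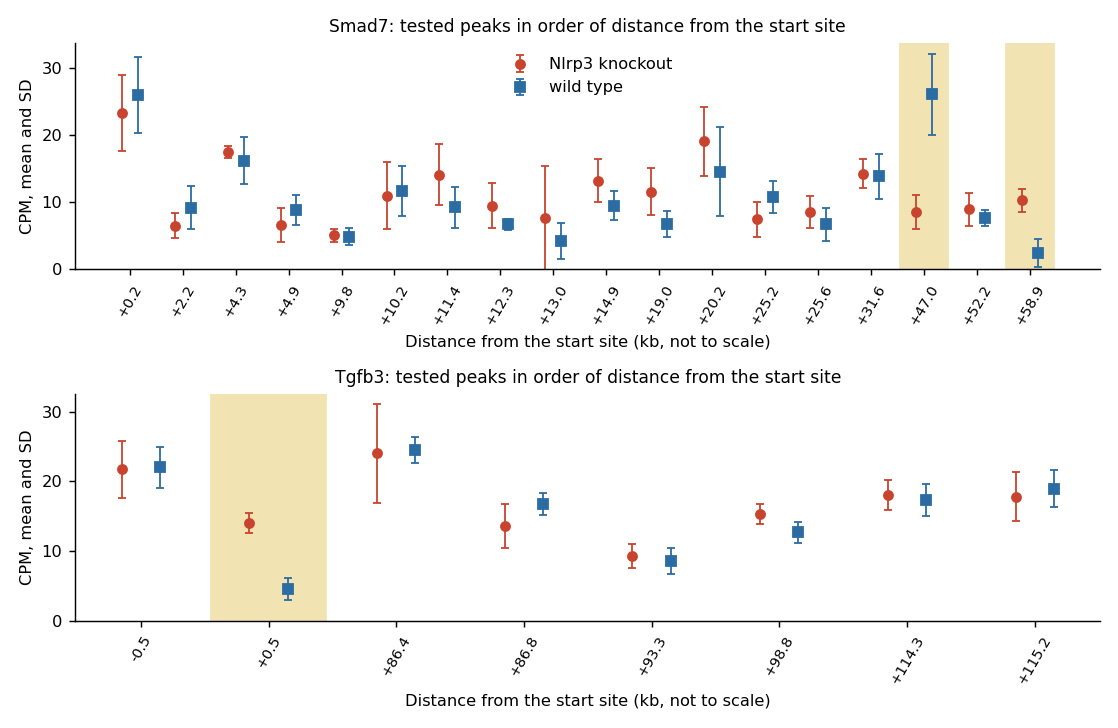
Mean CPM with SD (n = 4 libraries) of each tested peak of Smad7 (top) and Tgfb3 (bottom), Nlrp3 knockout as red circles and wild type as blue squares, in order of distance from the start site in kb (spacing not to scale). Shaded peaks passed the test: Smad7 at 47 kb (8.57 against 26.1 CPM) and 58.9 kb (10.3 against 2.44 CPM), and Tgfb3 at 0.5 kb (14 against 4.50 CPM).

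Other peaks near Smad7 passed as well. Of 1700 tested peaks on chromosome 18, 9 passed (0.529%), 4 higher and 5 lower in the knockout, and all 9 lie in a stretch of 1.92 Mb (73501934 to 75426357) that holds 75 tested peaks and the genes Smad4 and Smad7. None of the other 1625 tested peaks of the chromosome passed, those of Smad2 included. The stretch is bounded by called peaks and was chosen after they were seen, so these shares are a description. The labels do not give the background of the knockout line, and a difference in background along this stretch was not tested. Nearest to Smad4, 3 peaks in introns of Elac1, which encodes a tRNA-processing endonuclease, were lower. The most different of them (chr18:73746562-73746839) held 1, 1, 3 and 3 tags in knockout replicates 1 to 4 and 19, 12, 20 and 28 tags in wild-type replicates 1 to 4 (log2 fold change -3.12, SE 0.42, adjusted p = 0.000148). An intergenic peak assigned to Mex3c was lower (-1.93, SE 0.37), and an intronic peak of Me2, a mitochondrial malic enzyme, was higher (1.65, SE 0.35). Upstream of Smad7, both called peaks lie in introns of Dym, although the table assigns 1 of them to 2010010A06Rik, and both were higher (1.32, SE 0.27, and 1.5, SE 0.29). On chromosome 12, 1 of 2225 tested peaks passed, the Tgfb3 first-exon peak.

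**Figure D4:**
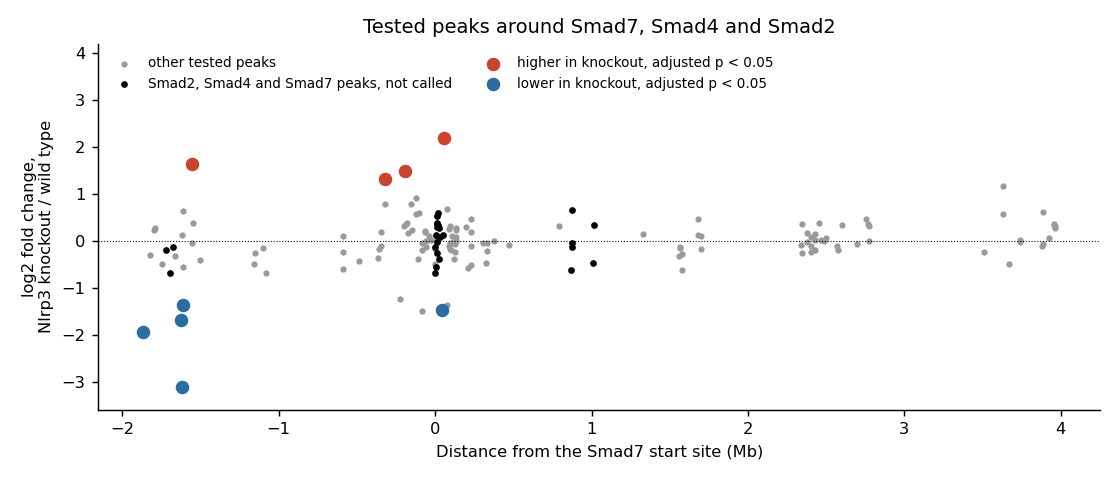
Log2 fold change (Nlrp3 knockout over wild type) of the tested peaks within 4 Mb of the Smad7 start site against distance from it in Mb. Red and blue points passed the test and lie between -1.87 and 0.06 Mb, black points are peaks of Smad4, Smad7 and Smad2 that did not pass, and grey points are other peaks.

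Within 1 Mb of the peaks of the other genes, the tested peaks that passed numbered 0 of 121 around Tgfb1, 0 of 94 around Tgfbr1, 0 of 56 around Tgfbr2 and 0 of 41 around Skil. Around Smad3, 1 of 143 passed (0.699%, against 0.170% of all tested peaks), a peak assigned to Megf11, and around Ski 4 of 171 (2.34%), assigned to Gm13112, Tnfrsf14, Mib2 and Aurkaip1 and all lower in the knockout.

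The co-repressor genes Ski and Skil had no peak that passed. The Ski promoter peak (chr4:155223237-155223494) had 83.3, 75.3, 66.3 and 80.5 CPM in knockout and 75.1, 73.1, 74.6 and 74.5 CPM in wild-type libraries (log2 fold change 0.031, SE 0.13, adjusted p = 1). Of the 28 tested Ski peaks, which come from the same 8 libraries and are not replicates of each other, 21 had a positive log2 fold change. Of all 58135 tested peaks 29378 did. The median of the Ski peaks was 0.029. The highest, in intron 1 (chr4:155189702-155189944), had 9.65, 7.38, 8.78 and 6.47 CPM in knockout and 5.97, 0, 5.69 and 3.73 CPM in wild-type libraries, which did not overlap (log2 fold change 0.94, SE 0.43, adjusted p = 1). The lowest (chr4:155196613-155196842), also in intron 1, had 6.03, 7.38, 3.95 and 2.91 CPM in knockout and 8.45, 4.92, 1.71 and 5.59 CPM in wild-type libraries (log2 fold change -0.31, SE 0.45, adjusted p = 1).

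The Skil promoter peak with the most tags (chr3:31094543-31094849) had 59.1, 56.1, 55.3 and 67.3 CPM in knockout and 61.2, 56.2, 46.7 and 56.4 CPM in wild-type libraries (log2 fold change 0.12, SE 0.14, adjusted p = 1). An intron 1 peak 0.7 kb past the start (chr3:31095662-31095924) had the highest fold change of the gene, with 56.7, 56.1, 54.0 and 51.8 CPM in knockout and 40.3, 47.1, 41.5 and 34.5 CPM in wild-type libraries. Every knockout library was above every wild-type library, yet the difference did not pass across all peaks (log2 fold change 0.42, SE 0.15, edgeR adjusted p = 0.818). The lowest, in intron 2 (chr3:31109167-31109436), had 3.62, 2.95, 9.66 and 6.79 CPM in knockout and 7.95, 12.6, 8.54 and 8.38 CPM in wild-type libraries (log2 fold change -0.44, SE 0.32, adjusted p = 1).

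Summed over their peaks, none of the 10 genes passed (edgeR), against 0.213% of 15476 tested genes, and none had an unadjusted p under 0.05, against 5.96%. DESeq2 also called 0 of the 10. Per kb of peak, Skil had the highest level, 98.1 ± 2.12 CPM per kb in knockout and 89.1 ± 8.37 CPM per kb in wild-type libraries. Tgfbr1 (77.4 ± 3.64 and 74.1 ± 4.25), Tgfb1 (68.6 ± 10.7 and 78.5 ± 5.62), Ski (68.4 ± 7.98 and 61.1 ± 7.40) and Smad3 (62.3 ± 3.26 and 60.9 ± 2.68) followed, and in the knockout libraries these neighbours lay within their spread of each other. Smad7 (34.1 ± 4.37 and 32.2 ± 3.79) and Smad4 (29.7 ± 4.16 and 31.1 ± 1.52) had the lowest levels per kb and were also within their spread. Fold changes of the sums ran from -0.16 (SE 0.11) for Tgfb1 to 0.16 (SE 0.089) for Ski on the log2 scale. The smallest adjusted p was 0.867, for Skil, with 211.3, 219.9, 221.7 and 220.0 CPM in knockout and 209.6, 218.3, 181.9 and 182.6 CPM in wild-type libraries (log2 fold change 0.15, approximate 95% interval -0.011 to 0.30). The Smad7 sum, with its opposed peaks, was 232.5, 215.6, 176.4 and 186.0 CPM in knockout and 213.0, 204.1, 161.7 and 187.5 CPM in wild-type libraries (log2 fold change 0.050, interval -0.14 to 0.24). Most of the Tgfb3 sum came from peaks other than the first-exon peak, and it had a log2 fold change of 0.14 (interval -0.047 to 0.33).

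**Figure D5:**
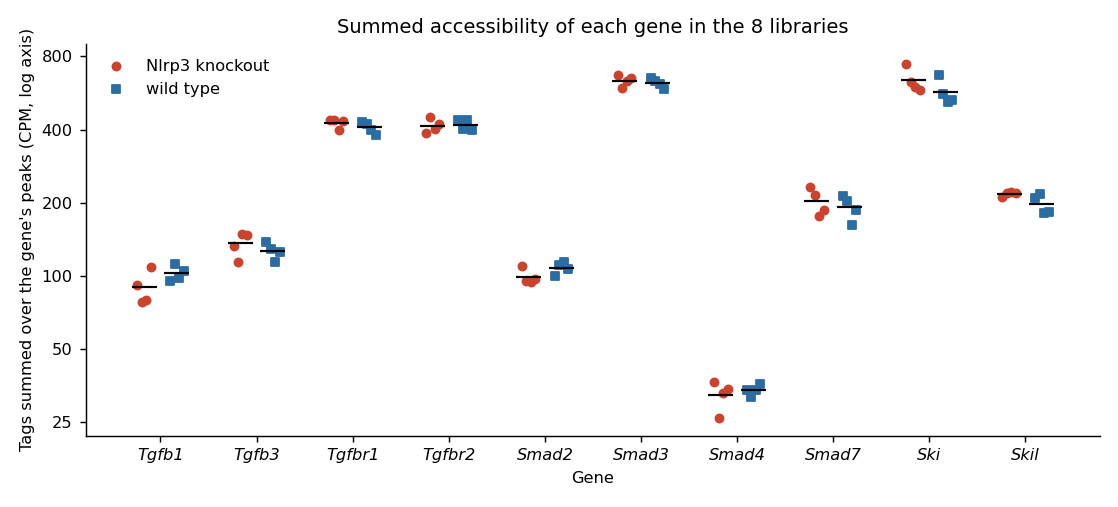
Tags summed over all peaks of each gene, in CPM on a log axis, for the 4 Nlrp3 knockout libraries (red circles, left) and the 4 wild-type libraries (blue squares, right), with means as black bars. The genotypes overlap at all 10 genes; sums grow with the number of peaks and are to be compared within a gene.

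Whether the peaks of a gene shared a single fold change was tested for each gene with several tested peaks (edgeR's diffSpliceDGE). Smad7 (F = 4.45 over 18 peaks, adjusted p = 9.78e-05) and Tgfb3 (F = 5 over 8 peaks, adjusted p = 0.0146) had unequal changes, against 0.615% of 10409 genes. The result for each reads the same tags as its called peaks and is not separate evidence of them. An unadjusted p under 0.05 was found for 5 of the 10 genes, against 4.99% of all, a share not matched for the number of peaks. These 5 genes had 6 to 31 tested peaks, where the median gene with a peak had 3 peaks. The other 3 of these did not pass: Tgfbr2 (adjusted p = 0.0515), Smad3 (0.0762) and Smad2 (0.826). Over the 14 alternatives Tgfbr2 passed in 1 (limma voom; adjusted p 0.00763 to 1 over all), Smad3 in 3 (0.00114 to 1) and Smad2 in 4 (0.00259 to 1). Smad7 passed in 13 of 14 alternatives, all but scaling to all tags. Tgfb3 passed in 4 of 14, and its adjusted p was 0.0851, 0.0729 and 0.282 without knockout replicates 1, 2 and 4, and 0.192, 0.460 and 0.133 without wild-type replicates 1, 2 and 4.

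Per kb, the promoter peaks of these genes, taking for each gene the one with the most tags, spanned a wide range, and none of them passed the test between genotypes. Tgfbr2 and Smad4 had no promoter peak under their names and are left out of this order. Ski (296 ± 28.9 CPM per kb in knockout, 288 ± 3.31 in wild-type libraries) and Tgfbr1 (261 ± 56.4 and 254 ± 22) were the most accessible and did not differ from each other beyond their spread. Skil (194 ± 17.8 and 179 ± 19.8), Smad2 (139 ± 38.4 and 154 ± 22.7) and Smad3 (135 ± 44.6 and 163 ± 32.8) followed, of which Smad2 and Smad3 could not be ordered. Tgfb3 (80.3 ± 15 and 81.5 ± 11.1), Tgfb1 (59.6 ± 17.7 and 69.5 ± 17.3) and Smad7 (48.9 ± 11.8 and 54.5 ± 11.8) were lowest and overlapped as neighbours.

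Other genes of the pathway and genes that respond to it in microglia gave 1 call by summed tags. Of 58 further TGF-beta pathway genes (other ligands, receptors, SMADs and modulators), 48 could be tested by summed tags and 1 passed, against 0.213% of all tested genes. This was Strap, which encodes an adaptor that binds both receptors and SMAD7, at 57.8 ± 9.91 CPM in knockout and 94.9 ± 6.22 CPM in wild-type libraries (log2 fold change -0.73, SE 0.11, adjusted p = 0.00105). The median log2 fold change of the 48 was 0.0087, against 0.002 over all tested genes. Of the 293 tested peaks of this list 2 passed (0.683%, against 0.170% of all tested peaks), both intergenic, assigned to Strap and neighbours of each other. The Strap sum includes their tags and is not separate evidence of them. How Strap fared under the alternatives is not given here. The peak chr6:137696814-137697175 averaged 5.48 ± 1.00 CPM in knockout and 26.1 ± 1.36 CPM in wild-type libraries (log2 fold change -2.22, SE 0.24, adjusted p = 4.12e-06), and the peak chr6:137696393-137696782 averaged 11.2 ± 4.59 and 22.5 ± 0.188 CPM (log2 fold change -1.21, SE 0.24, adjusted p = 0.0234). Of 25 TGF-beta-responsive genes, among them the 10 microglial markers used above, all were tested and 0 passed by edgeR; 6 had an unadjusted p under 0.05, against 5.96% of all tested genes, the median log2 fold change was 0.048, and the smallest adjusted p was 0.369, for Csf1r, the receptor on which microglia depend. None of the 231 tested peaks of these genes passed.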

How the data were processed

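Per the labels' protocols, gel bands of 165 to 250 bp were cut out and read single-end for 51 cycles. Tools named in the submitters' processing notes are DESeq2, HOMER and Bowtie2, on mm10, with no version given. According to the headers, the authors counted tags with HOMER over a merged list of knockout and wild-type IDR peaks (peaks that recur between replicates), with at most 3 tags per position. The deposited counts are whole tags per peak and library. Alignment settings, any shift of read ends and the removal of duplicates were not stated in labels or headers. The normalized table was not used.

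Counts were tested with edgeR 4.0.16 (limma 3.58.1, R 4.3.3; quasi-likelihood F test, TMM scaling, filterByExpr with a minimum count of 10, genotype as the only term, all 8 libraries), with Benjamini-Hochberg adjustment over all tested peaks or genes and a threshold of 0.05. DESeq2 1.42.0, other scalings, no filter on low counts, a replicate block and left-out libraries were the alternatives. Approximate 95% intervals are the estimate ± 1.96 SE. The fits were checked on simulated counts. Promoter sequences came from RefSeq (GRCm38.p6, the assembly of mm10); 6 windows of these genes were matched. The tables do not say whether replicates were separate animals, so each p-value reflects library spread that may be partly technical.

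The genes, lists, tests and alternatives were chosen with earlier results of these data known. Peaks named with values are those that passed, the promoter peak of each gene with the most tags, and the tested peaks of each gene with the lowest and highest fold change; other peaks named are described as chosen after their values were seen, for their position or for their level. Pathway and responsive genes are named where a sum or a peak passed, and Csf1r as the smallest p of its list.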

Additional observations from a re-analysis of the deposited data

Results flagged for a closer look

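In 6 of 74 groups of 4 libraries, 1 library stood apart from the other 3 by Dixon's criterion; chance flags about 1 in 20 groups. Knockout replicate 2 was the lowest of its group at the lowest tested Tgfb3 peak, with 8.86 CPM against 14.5 to 15.5 CPM in the other knockout libraries. It was also the lowest at the intron 1 peak of Smad4, with 8.86 CPM against 16.7 to 17.5 CPM. Knockout replicate 3 had the lowest Tgfbr1 sum of its group, 397 CPM against 434 to 438 CPM. Wild-type replicate 1 was the highest of its group at the lower Smad7 peak, with 35.3 CPM against 22.8 to 23.3 CPM in the other wild-type libraries, and the peak passed without it. Wild-type replicate 2 was the highest at the higher Smad7 peak, with 5.62 CPM against 0.932 to 1.71 CPM, and the peak passed without it too. It was also the highest at the intron 2 peak of Skil, with 12.6 CPM against 7.95 to 8.54 CPM.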

How the results depend on the processing

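Over 14 alternatives, every peak of these genes that passed kept its direction, and none of the 10 summed genes passed under any. Of all tested peaks, 99 passed, against 19 with scaling to all tags, 65 with DESeq2, 246 without knockout replicates 1 and 2, and 65 to 123 with 1 library left out. Of the peaks of these genes, 3 passed, against 0, 2, 5 and 1 to 3 in the same alternatives. Of summed genes, 33 passed, against 5 with scaling to all tags, 70 without knockout replicates 1 and 2, and 20 to 42 with 1 library left out. Of genes tested for unequal peak changes, 64 passed, against 3 with scaling to all tags and 37 to 77 with 1 library left out; of the 10 genes, 2 passed, against 0 with scaling to all tags and 1 to 3 with 1 library left out. Scaling to all tags moved the median log2 fold change of all tested peaks to 0.10, against 0.0037 with TMM; the cause of the lost calls was not tested. Same-numbered knockout and wild-type libraries did not deviate together (correlations -0.008, 0.096, -0.008 and 0.147), so numbers were not taken as pairs, and not every library correlated best with its own number; with a replicate block 140 peaks passed, 3 of them of these genes, and 1 of the 10 genes, Smad7, had unequal changes (Tgfb3 adjusted p = 0.100). Peaks with a few tags in knockout replicates 1 and 2 limit what can be detected there.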
